A study of Mus musculus with 2 samples.

Results

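The genes examined here encode the machinery with which the intestinal epithelium moves sodium, chloride, potassium and bicarbonate. They were chosen by symbol and comprised the Slc4, Slc9, Slc12 and Slc26 transporter families, the carbonic anhydrases (Car genes), the subunits of the epithelial sodium channel (Scnn1a, Scnn1b and Scnn1g) and of the sodium pump (Atp1a and Atp1b genes), together with Cftr, Atp12a, Best2, Sgk1, Hsd11b2 and Nr3c2. Of the 40879 gene symbols counted, 72 met this definition. Nkcc1 was not listed under that name, which is an older name of Slc12a2.

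Intestinal RNA of ERAP1 wild type (WT) mice was compared to that of mice labelled ERAP1 hetero type (ERAP1+/-). All were on the C57BL/6 background and without colitis induction or drug. The methods give the mice as 8 weeks old when assigned to groups, and the age at tissue collection is not stated for those sequenced. ERAP1 is an endoplasmic reticulum aminopeptidase that trims peptides for antigen presentation. The mutant allele came from crossing a tm1a (EUCOMM) line with a Cre-expressing strain that the methods do not name, which removes exons 6 and 7. RNA of 3 mice per genotype was pooled into 1 library, here called the WT library and the HT library, and sequenced from the 3' ends of transcripts. The methods call the mice germ-free and also name housing without specific pathogens. The libraries held 8114826 reads (WT) and 8907515 reads (HT).

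With 1 library per genotype, no difference has a replicate check, and no p-value is given. Levels are CPM, reads per library scaled to a common size after TMM (trimmed mean of M values) adjustment, and differences between the libraries are given either as a ratio of CPM or on the log2(CPM + 1) scale. Because each transcript gives reads near its 3' end, CPM was not divided by transcript length, and levels of different genes are set side by side only as reads. The 95% intervals are exact conditional binomial intervals of the ratio and take in the error of counting alone. For a gene with no read, the limit was set at 3 reads, which is 0.386 CPM (WT) or 0.322 CPM (HT). Erap1 itself had 229 WT reads and 2 HT reads. The HT level was 0.730% of the WT level (0.0878% to 2.67%). A heterozygous label implies an intact copy of the gene, and so low a level goes against that label. Because 3' reads lie outside the deleted exons, they do not show which allele was present. HT library therefore means the library labelled ERAP1+/- throughout, and every direction below is between the libraries as labelled. Xist had 1635 and 6451 reads and the Y-linked Ddx3y had 319 and 29, so that the sex of the pooled mice and the genotype cannot be told apart.

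The colonic epithelium absorbs salt and water and also secretes fluid. At the surface, sodium-proton exchangers work beside the chloride-bicarbonate exchanger Slc26a3, and carbonic anhydrases supply the protons and bicarbonate for them. In the distal colon, aldosterone adds sodium entry through the epithelial sodium channel. In the crypts, chloride enters through the basolateral cotransporter Slc12a2 and leaves through the apical channel Cftr, driven by the sodium pump and by potassium channels. The tissue label was intestine, and the libraries carried markers of the colon. The water channel gene Aqp8 had 5360 WT reads and 5329 HT reads, and Hoxb13, a transcription factor gene of the most distal gut, had 3176 and 2848. Among markers of the small intestine, Sis, Apoa4, Defa24 and Defa30 had no read in either library. Others of that list were present, with Slc5a1 at 1273 and 1201 reads, which made up most of the list's sum. The 16 genes summed to 237 and 219 CPM. Fabp2 (56 and 299 reads, ratio 4.46) was the only gene of the list past 2-fold by the rule given below. It reached the 15 CPM of that rule only in the HT library, where it was higher (7.21 CPM in WT and 32.1 CPM in HT).

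The transport genes did not differ in 1 direction. Most roles held genes that were higher and genes that were lower. On the TMM scale, however, the 6 pump genes with at least 10 reads were all lower, and Cftr and Best2 were higher. Cftr was 2.32 times and Slc12a2 1.82 times its WT level. The bicarbonate cotransporter gene Slc4a4 was 2.63-fold lower, the membrane-bound carbonic anhydrase gene Car4 2.16-fold lower and the colonic proton-potassium pump gene Atp12a 2.12-fold lower. Of the genes for sodium absorption, Scnn1a was 1.81-fold lower and Scnn1b 1.45-fold lower (1.02 to 2.07). Slc9a2 and Scnn1g had intervals that included a ratio of 1, and Slc9a3 was higher at a low level. Together the 72 genes took 1.25% of the reads of the WT library (101669 reads) and 1.06% of those of the HT library (94182 reads). Reads were found in both libraries for 59 of them, in the HT library alone for 4 and in the WT library alone for 1, and 8 had no read in either. In bulk tissue, fewer cells of a type and less RNA per cell cannot be told apart.

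A gene was counted as past 2-fold where the difference exceeded 1 on the log2(CPM + 1) scale and the level was at least 4 on that scale (15 CPM) in 1 or both libraries. Of the 72 genes, 29 reached this level. Of these, 2 were past 2-fold higher in the HT library (6.90%), Cftr and Slc12a8, against 1.39% of all 8013 symbols that reached the level. Another 4 were past 2-fold lower (13.8%), Slc4a4, Car4 and Atp12a among them, against 3.96% of all symbols. The median difference over the 29 genes was -0.21, and over all symbols at that level it was -0.03. With a lower requirement of 10 reads in 1 or both libraries, 56 of the genes qualified. Of them, 4 were past 2-fold higher (7.14%), now with Slc9a3 and Slc9a7, against 3.14% of 15334 symbols. The lower genes then numbered 5 (8.93%), now with Car14, against 5.92% of all. Slc12a8 reached the level in the HT library alone (6.31 CPM in WT and 21.4 CPM in HT). Slc9a3 likewise reached 10 reads in the HT library alone (7 and 60 reads). Each thus passed its filter only through the library where it was higher. These shares rest on a handful of genes, and no test was applied to them.

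**Figure D1:**
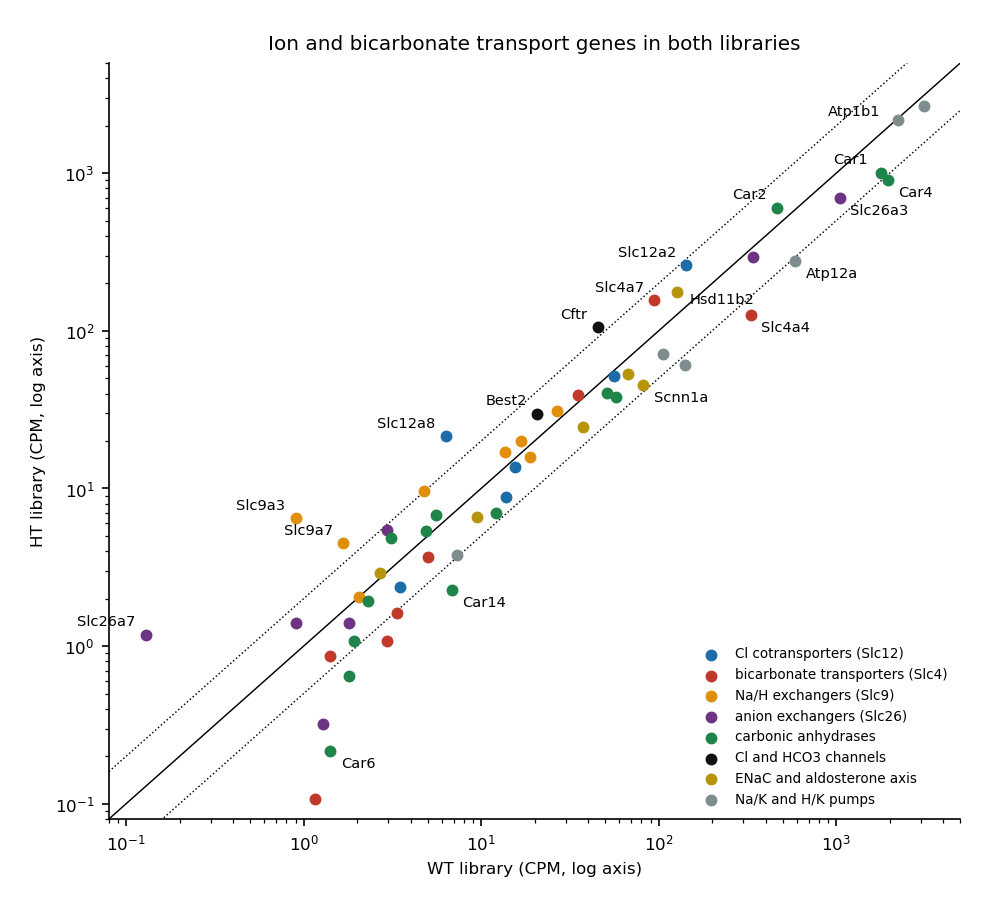
Level of each transport gene with at least 10 reads over both libraries, in CPM in the WT library (x axis, log) and the HT library (y axis, log), coloured by role. The solid line marks equal levels and the dotted lines a 2-fold ratio, and Cftr and Slc12a8 lie above the upper dotted line, while Slc4a4, Car4 and Atp12a lie below the lower one. Genes with few reads, such as Slc9a3, lie outside the lines too.

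Cftr encodes the cAMP-gated chloride and bicarbonate channel of the apical membrane that is defective in cystic fibrosis. The gene lies on chromosome 6 of GRCm38 (chr6:18170687-18322768, plus strand). It had 352 WT reads and 978 HT reads, or 45.3 and 105 CPM. The ratio was 2.32 with an interval from 2.05 to 2.63, so that counting error alone did not reach below 2-fold. Best2 encodes bestrophin 2, an anion channel of the basolateral membrane of colonic goblet cells that takes part in bicarbonate secretion. It had 161 and 278 reads and was 1.44 times its WT level (1.18 to 1.76). Cftr and Best2 were thus both higher but not by the same factor, since Cftr had 2.19 reads per Best2 read in WT and 3.52 in HT, a pair chosen after its values were seen.

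The Slc12 family holds the cation-chloride cotransporters. Slc12a2, the sodium-potassium-chloride cotransporter NKCC1 that loads crypt cells with chloride, had 1111 and 2419 reads (143 and 260 CPM). Its ratio of 1.82 (1.69 to 1.95) stayed below 2-fold on the TMM scale. Slc12a8, a less studied member of the family, lies on chromosome 16 (chr16:33517328-33664135, plus strand) and had 49 and 199 reads. At 6.31 and 21.4 CPM its ratio was 3.39 (2.47 to 4.74), which made it the member past the level with the highest ratio.

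The potassium-chloride cotransporters let chloride out of cells and set their volume. Slc12a7 had 436 and 482 reads, and the interval of its ratio of 0.923 included 1 (0.810 to 1.05). Slc12a4 had 27 and 22 reads. Slc12a9 had 121 and 127 reads, with an interval from 0.678 to 1.13. The renal cotransporter genes Slc12a1 (3 and 0 reads) and Slc12a3 (no read) and the neuronal Slc12a5 (0 and 1) were near or at 0 in both libraries. Over the 6 family members with at least 10 reads the median difference was -0.15, with 2 above 0 and 4 below. The signs of Slc12a7 and Slc12a9 turned with the scaling of the libraries, as total-count scaling put Slc12a7 at 0.01 and scaling to intestinal epithelial genes put Slc12a9 at 0.14. Slc12a2 supplied 59.9% (WT) and 72.6% (HT) of the family's reads.

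The Slc4 family carries bicarbonate. Slc4a4, the electrogenic sodium-bicarbonate cotransporter NBCe1 that brings bicarbonate into epithelial cells across the basolateral membrane, lies on chromosome 5 (chr5:88886818-89239653, plus strand). It had 2560 WT reads and 1166 HT reads (329 and 125 CPM) and was 2.63-fold lower (2.45 to 2.82). Slc4a7, the electroneutral sodium-bicarbonate cotransporter NBCn1, had 732 and 1460 reads (94.2 and 157 CPM) and was higher, with a ratio of 1.67 (1.52 to 1.82). The family's leading gene therefore differed between the libraries. In the WT library there were 0.286 reads of Slc4a7 per read of Slc4a4 and in the HT library 1.25, a 4.38-fold difference (3.91 to 4.90) that does not depend on the scaling of the libraries. This pair, too, was picked from its values.

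Slc4a2, the basolateral chloride-bicarbonate exchanger AE2, had 273 and 363 reads with an interval from 0.947 to 1.30. The erythrocyte exchanger gene Slc4a1 had 0 and 3 reads, although hemoglobin transcripts were present (Hba-a1 523 and 744 reads). Of the 8 Slc4 genes with at least 10 reads, 2 were above 0 and 6 below, and the median difference was -0.56. The remaining 5 of these 8 (Slc4a3, Slc4a5, Slc4a8, Slc4a9 and Slc4a11) had between 1 and 39 reads in any library. Slc4a10 had no read.

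**Figure D2:**
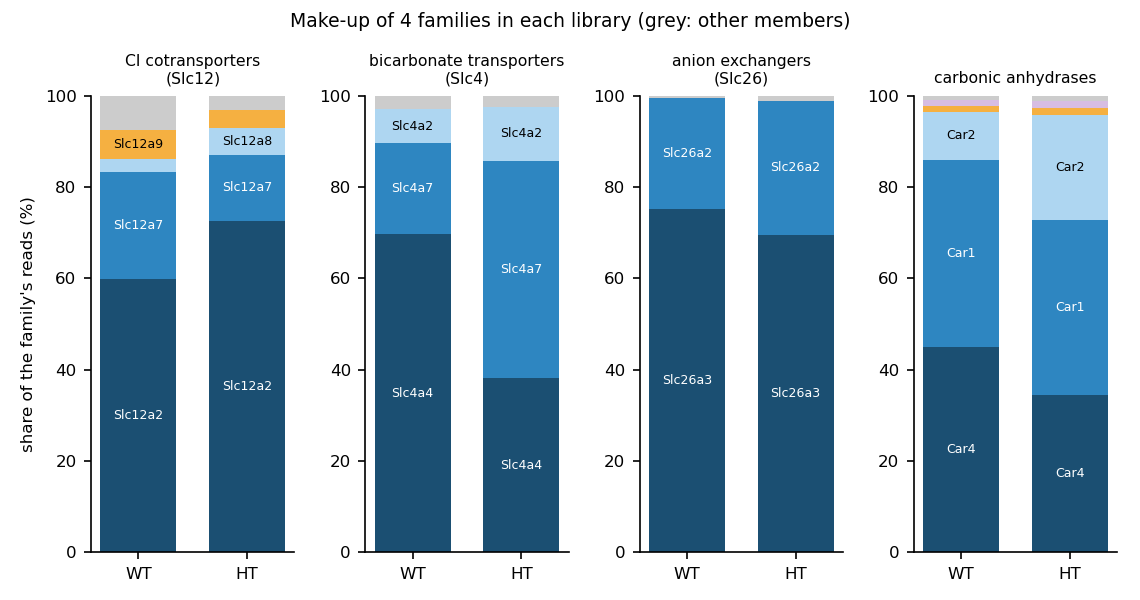
Share of the reads of 4 families taken by each leading gene in the WT and HT libraries, in percent of the family's reads, with other members in grey. Slc4a4 gives most Slc4 reads in WT and Slc4a7 leads in HT, Car2 takes a larger and Car4 a smaller share of the carbonic anhydrase reads in the HT library, and Slc26a3 leads its family in both libraries.

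Sequence before the starts of transcription is shown for genes past 2-fold, so that genes higher and lower in the HT library can be set side by side. RefSeq sequences (GRCm38.p6) matched 47 of the 72 genes and 4 of the 6 genes past 2-fold, and Atp12a is among those named only. The 150 bases before a start are printed 5' to 3' on the plus strand for windows outside annotated exons of the gene, with the upstream start for Slc12a8 and the internal start for Slc4a4. Capitals mark matches, on either strand, to the motifs searched. The windows are chr6:18170537-18170686 for Cftr, chr16:33517178-33517327 for Slc12a8, chr5:89027816-89027965 for Slc4a4 and chr11:84957604-84957753 for Car4.
Cftr: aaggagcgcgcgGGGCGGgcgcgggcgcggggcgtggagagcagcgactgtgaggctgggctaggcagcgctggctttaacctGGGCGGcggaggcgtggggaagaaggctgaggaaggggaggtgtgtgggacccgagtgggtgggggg
Slc12a8: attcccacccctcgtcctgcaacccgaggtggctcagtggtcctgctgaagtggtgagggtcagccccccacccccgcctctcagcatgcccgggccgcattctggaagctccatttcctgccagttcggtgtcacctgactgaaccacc
Slc4a4: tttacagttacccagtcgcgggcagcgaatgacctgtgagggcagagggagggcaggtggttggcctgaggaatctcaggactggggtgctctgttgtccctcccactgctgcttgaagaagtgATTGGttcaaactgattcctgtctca
Car4: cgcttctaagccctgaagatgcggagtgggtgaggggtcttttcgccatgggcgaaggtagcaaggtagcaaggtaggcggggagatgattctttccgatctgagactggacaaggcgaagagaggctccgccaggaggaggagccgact

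The Cftr window was rich in G and C (73.3%, against a median of 54% over 32851 windows) and held 2 GC boxes, which begin 138 and 67 bases before the start. This GC box, searched as GGGCGG, occurred in 28.6% of all windows and in 44.6% of the 65 windows of transport genes. The window before Slc4a4 start 1, not printed because it overlaps an exon of the gene, held a GC box too. It lies 115 to 110 bases before that start. The Slc4a4 window held a CCAAT box on the minus strand 26 to 22 bases before the start, a motif whose 5 letters were found in 24.5% of windows. The Car4 window (58.7% G and C) and the printed Slc12a8 window (64%) held no match to the motifs searched. Slc12a8 has 3 RefSeq starts, and the window before its start 2, not printed, held a Cdx core on the minus strand 80 to 76 bases before that start. The TATA box, searched as TATAAA, occurred in 7.57% of all windows. The core of the cAMP response element, searched as TGACG, was in 13.3% of them. A core site of Cdx factors, searched as TTTAT, which can overlap a TATA box, was in 24.1%. Reads from 3' ends do not show which start of Slc4a4 or Slc12a8 was in use.

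The Slc9 family exchanges sodium for protons. Slc9a3 (NHE3), the main apical exchanger for sodium absorption in the intestine, had 7 WT reads and 60 HT reads. At 0.901 and 6.45 CPM the ratio was 7.16 with a wide interval (3.27 to 18.6), and the level was too low for the main rule. The gene lies on chromosome 13 (chr13:74121457-74169442, plus strand), 470 kb from Erap1. Within 1 Mb of Erap1 lay 18 genes with at least 10 reads in a library. Slc9a3 was the only one more than 2-fold higher in the HT library, and it reached 10 reads in that library alone. Another 2 were more than 2-fold lower, Tppp and Gm15912. Over all 15334 symbols with as many reads, 3.14% were higher and 5.92% lower by that measure. Counts of 1 and 2 genes are too small to be set apart from these shares. Exoc3, whose gene runs toward Slc9a3 on the minus strand from 74208732 to 74169488, had 397 and 455 reads. Whether the counting used strand is not stated, and the 3' ends of both genes lie close together.

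Slc9a2 (NHE2), another apical exchanger of the colon, had 147 and 148 reads with an interval from 0.665 to 1.06, and its difference of -0.24 turned to 0.08 with scaling to the epithelial list. Slc9a8 (106 and 159 reads) had a ratio of 1.25, with an interval that included 1 (0.974 to 1.62). At lower levels, the endosomal Slc9a9 (37 and 89 reads) and the Golgi exchanger Slc9a7 (13 and 42 reads) had ratios of 2.01 (1.36 to 3.03) and 2.70 (1.42 to 5.48). Of the 8 Slc9 genes with at least 10 reads, 6 were above 0 and 2 below, with a median difference of 0.27. Slc9a5 had 16 and 19 reads, and Slc9a4, an exchanger best known from the stomach, had 2 and 3.

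The Slc26 family exchanges anions. Slc26a3, the apical chloride-bicarbonate exchanger DRA whose loss causes congenital chloride diarrhea, had 8144 WT reads and 6433 HT reads (1048 and 692 CPM). It was 1.52-fold lower (1.47 to 1.57). Slc26a2, a sulfate transporter of the colonic surface, had 2641 and 2740 reads, and its difference of -0.21 turned to 0.11 with scaling to the epithelial list. Slc26a3 gave 75.1% (WT) and 69.4% (HT) of the family's reads and Slc26a2 gave 24.4% and 29.6%. Slc26a3 and Cftr are known to act beside each other in the apical membrane. There were 0.0432 reads of Cftr per read of Slc26a3 in WT and 0.152 in HT, a 3.52-fold difference (3.10 to 3.99) in a pair chosen in the same way, as was that of Car2 with Car4.

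The other Slc26 genes were sparse. Slc26a6 (PAT1), an exchanger of the upper intestine, had 14 and 13 reads. Slc26a11 had 23 and 51 reads, a ratio of 1.85 (1.11 to 3.18). Slc26a7, an exchanger known from gastric parietal cells, had 1 and 11 reads, a ratio of 9.19 with an interval from 1.34 to 395. The parietal cell gene Atp4b had no read in either library and Atp4a had 2 in each, while Aqp4, also a gene of parietal cells, had 80 and 1719. Slc26a4 (7 and 13 reads) and Slc26a9 (10 and 3) were near the detection limit, and Slc26a1 had 0 and 2 reads. Slc26a5, Slc26a8 and Slc26a10 had none.

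Carbonic anhydrases interconvert carbon dioxide and bicarbonate. Car4, anchored to the apical membrane of colonocytes, lies on chromosome 11 (chr11:84957786-84966044, plus strand) and had 15163 WT reads and 8391 HT reads (1951 and 902 CPM). It was 2.16-fold lower (2.11 to 2.22). Car1, a cytosolic enzyme abundant in colonocytes, had 13814 and 9366 reads (1778 and 1007 CPM) and was 1.77-fold lower (1.72 to 1.81). Car2, the fast cytosolic enzyme found along the crypt and in many other cells, went the other way with 3606 and 5617 reads, a ratio of 1.30 (1.25 to 1.36). Its share of the carbonic anhydrase reads was 10.7% in the WT library and 23.0% in the HT library, while that of Car4 was 44.9% and 34.4%. Reads of Car2 per read of Car4 numbered 0.238 and 0.669, a 2.81-fold difference (2.68 to 2.96).

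Car1, Car2, Car3 and Car13 lie next to each other on chromosome 3, from 14641727 (start of Car13) to 14900770 (end of Car2). Within this cluster Car1 (-0.82), Car13 (-0.71) and Car3 (-0.59) were lower in the HT library and Car2 (0.38) was higher, although only 13.8 kb separate Car3 and Car2. Car3, an enzyme abundant in skeletal muscle and fat, had 446 and 352 reads. Car14, known from muscle, kidney and retina, had 53 and 21 reads and was 3.02-fold lower (1.79 to 5.27) at a level below that of the main rule. The 3' end of Car14 overlaps the oppositely oriented gene Aph1a (538 and 530 reads).

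Car9, a hypoxia-inducible membrane enzyme, had 399 and 377 reads and was 1.27-fold lower (1.10 to 1.46). Car12, a basolateral membrane enzyme, had 43 and 63 reads with an interval from 0.817 to 1.85. The mitochondrial Car5b had 24 and 45 reads, and Car5a had none. The other family members had few reads, namely Car8 (38 and 50), Car11 (18 and 18), Car7 (15 and 10), Car15 (14 and 6), Car6 (11 and 2) and Car10 (0 and 5). Of the 14 carbonic anhydrase genes with at least 10 reads out of 16, 4 were above 0 and 10 below, with a median difference of -0.54 and a range from -1.26 to 0.51. Summed over the family, the level was 4342 CPM (WT) and 2622 CPM (HT).

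**Figure D3:**
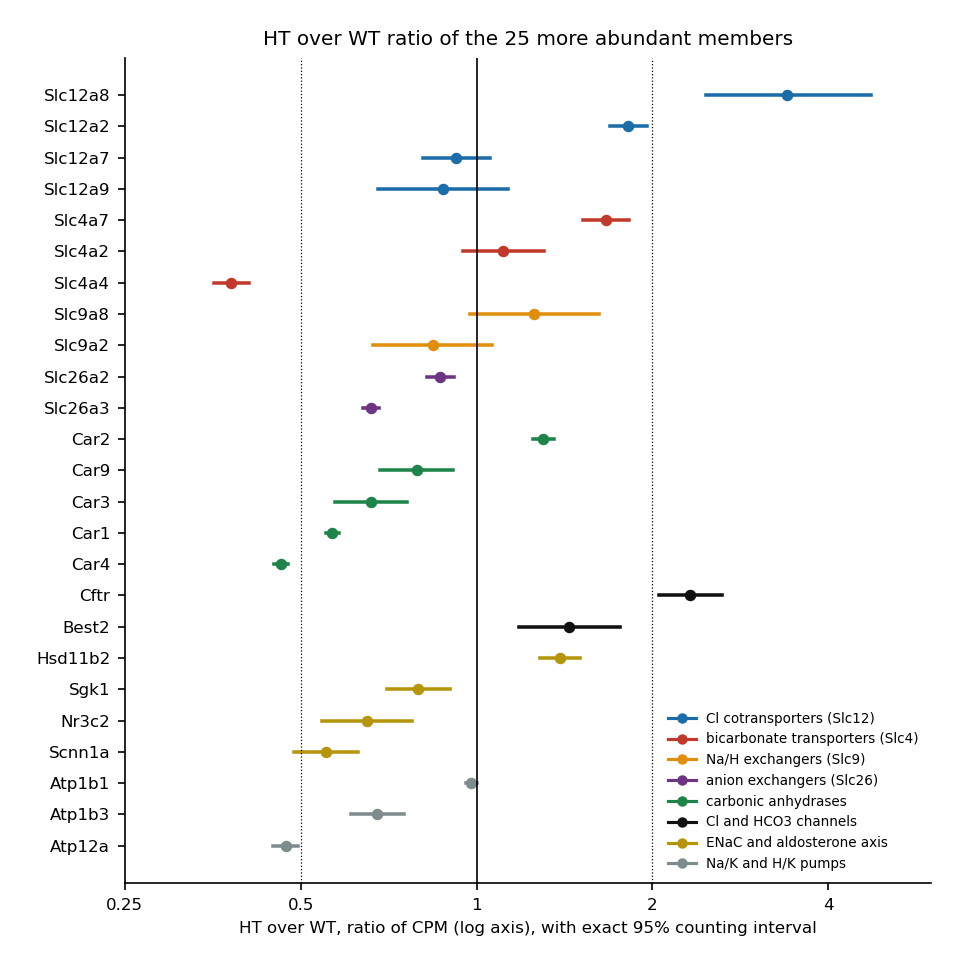
Ratio of the HT over the WT library (x axis, log) for 25 of the 29 transport genes that reached 15 CPM in a library, with exact 95% counting intervals as bars, grouped by role. Cftr and Slc12a8 lie to the right of the dotted line at 2, and Slc4a4, Car4 and Atp12a to the left of the dotted line at 0.5.

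The epithelial sodium channel is built from the subunits Scnn1a, Scnn1b and Scnn1g, of which the beta and gamma subunits are induced by aldosterone in the distal colon. Scnn1a had 638 and 422 reads (82.1 and 45.4 CPM) and was 1.81-fold lower (interval of the ratio 0.487 to 0.626). Scnn1b had 74 and 61 reads and a ratio of 0.689 (0.482 to 0.980), and Scnn1g had 21 and 27 reads and a ratio of 1.07 with a lower bound of 0.585. The ratio of Scnn1a, 0.553, lay within the interval of Scnn1b and below that of Scnn1g. The 3' end of Scnn1b overlaps Cog7 on the other strand (191 and 155 reads).

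Among the genes through which aldosterone acts, Nr3c2, the mineralocorticoid receptor, had 292 and 227 reads and was 1.54-fold lower (1.29 to 1.84). Sgk1, a kinase that the receptor induces and that keeps the channel at the membrane, had 523 and 498 reads and was 1.26-fold lower (1.11 to 1.42). Hsd11b2, the enzyme that inactivates glucocorticoids in aldosterone target cells, stood above its WT level at 990 and 1647 reads, with a ratio of 1.39 (1.28 to 1.51). None of the 6 genes of this axis was past 2-fold, and their median difference was -0.40.

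The ion pumps supplied the most reads. Atp1b1, the beta subunit of the epithelial sodium pump, had 17208 WT reads and 20185 HT reads (2215 and 2170 CPM). Its difference was -0.03 on the log2 scale, and the sign turned with scaling to the epithelial list (0.29). Atp12a, the catalytic subunit of the apical proton-potassium pump of the distal colon, lies on chromosome 14 (chr14:56365068-56388550, plus strand). It had 4562 and 2573 reads (587 and 277 CPM) and was 2.12-fold lower (2.02 to 2.23).

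Atp1b3, a beta subunit found in many tissues (821 and 665 reads), was 1.48-fold lower (1.33 to 1.64) and Atp1b2 (57 and 35 reads), a beta subunit of glia and muscle, 1.95-fold lower (1.26 to 3.06). Atp1a4 and Atp1b4 had no read. Of the 9 pump genes, all 6 with at least 10 reads were below 0 on the TMM scale, and 2 of them, Atp1b1 included, turned under another scaling.

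Genes that regulate these transporters were taken from a separate list, of which 61 symbols were in the files and 47 reached the level. Past 2-fold, 3 of the 47 were higher and 2 lower in the HT library (1.39% and 3.96% of all symbols at the level), and the median difference over the 59 with at least 10 reads was 0.05. The higher genes were Kcnn4, a calcium-activated basolateral potassium channel (121 and 317 reads, ratio 2.19), Vip, the neuropeptide that stimulates chloride secretion (129 and 348 reads, 2.25), and Guca2b, uroguanylin (58 and 159 reads, 2.29). Guca2b reached the level only in the HT library, where it was higher (7.46 CPM in WT and 17.1 CPM in HT). The lower genes were Clca4a, a chloride channel regulator of the surface epithelium (820 and 322 reads, 3.05-fold), and Usp2, a deubiquitinase known to act on the sodium channel (564 and 240 reads, 2.81-fold). Clca1, a protein secreted by goblet cells, had the most reads on the list, 12826 and 25261. Kcne3, which was named after its value was seen, is the subunit that pairs with Kcnq1 as the cAMP-activated basolateral potassium channel, and it had 1007 and 2148 reads, a ratio of 1.78 (1.65 to 1.92). Kcnq1 itself had 300 and 520 reads, a ratio of 1.45 (1.25 to 1.67).

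**Figure D4:**
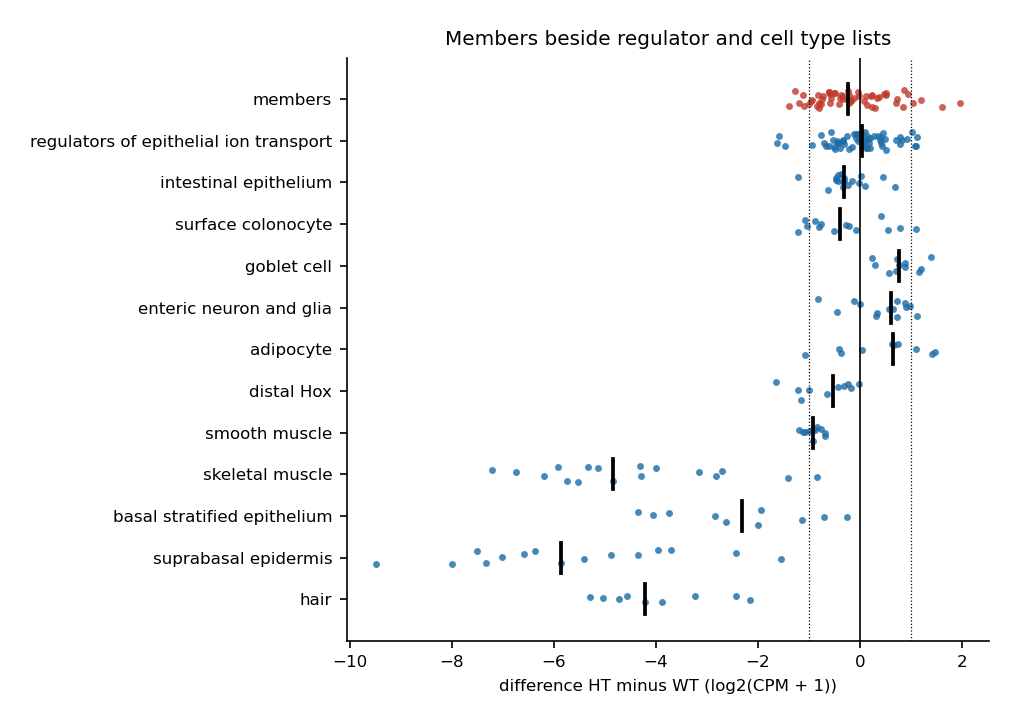
Difference between the HT and WT libraries on the log2(CPM + 1) scale for single genes (points) with at least 10 reads over both libraries, for the transport genes (red), the regulator list and the cell type lists (blue), with list medians as black bars and dotted lines at 2-fold. The transport genes spread from -1.39 to 1.97, while skeletal muscle and epidermal lists lie far to the left and the goblet cell list lies to the right of 0.

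Markers of the cell types in the tissue differed between the libraries as well. All 11 goblet cell genes were higher in the HT library, from a summed 9028 CPM to 14819 CPM, with Muc2, the main secreted mucin, at 12020 and 32939 reads. Best2, a goblet cell gene, was higher as well. Surface colonocyte genes were lower in 10 of 14 cases (summed 18860 and 12538 CPM, median difference -0.38). Krt20, a keratin of differentiated surface cells, was 2.31-fold lower, beside the lower Car4, Car1, Slc26a3 and Slc4a4. The other 4 genes of the surface list, Guca2b, Guca2a, Slc20a1 and Slc37a2, were higher. Past 2-fold, 3 of the 14 surface genes were lower, Krt20 included, and 1 was higher, Guca2b, which reached the level in the HT library alone. Of all symbols at the level, 3.96% were lower and 1.39% higher. Over 18 general genes of the intestinal epithelium, Krt20 again among them, the median difference was -0.32, with 14 below 0. Enteric neuron and glia genes were higher in 11 of 14 cases (133 and 200 CPM). The part of cell type makeup in the differences of the transport genes was not tested.

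Lists of muscle and skin genes differed by more. The summed level of 17 skeletal muscle genes was 1414 CPM (WT) and 25.8 CPM (HT), and 11 smooth muscle genes summed to 12314 and 6323 CPM, and each gene of both lists was lower. Car3, Car14 and Atp1b2, which are known from muscle, were lower as well. The 15 suprabasal epidermis genes summed to 3699 and 51.9 CPM, with Ivl, Dsc1, Klk7 and Klk5 at 0 in the HT library, and genes of basal stratified epithelium (599 and 250 CPM) and hair (212 and 2.26 CPM) were lower too. The 10 red blood cell genes, Slc4a1 among them, summed to 202 and 232 CPM. The 10 distal Hox genes were all below 0 (694 and 462 CPM). Fat also expresses Car3, and 10 adipocyte genes summed to 196 and 335 CPM, with 7 of them higher and 3 lower in the HT library. The part of these tissues in the values of the transport genes was not tested.

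The counts past 2-fold were read again under 5 scalings of the libraries. Slc4a4, Cftr and Slc12a8 were past 2-fold under each of them. Car4 and Atp12a fell short of 2-fold with total-count scaling (-0.99 and -0.96) and with scaling to the epithelial genes (-0.79 and -0.77). With the latter, Slc12a2 (1.18) and Slc4a7 (1.05) passed 2-fold. Of the 29 genes at the level, 23 kept their sign under all 5 scalings and 6 did not, among them Atp1b1, Slc12a7, Slc12a9, Slc26a2 and Slc9a2.

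**Figure D5:**
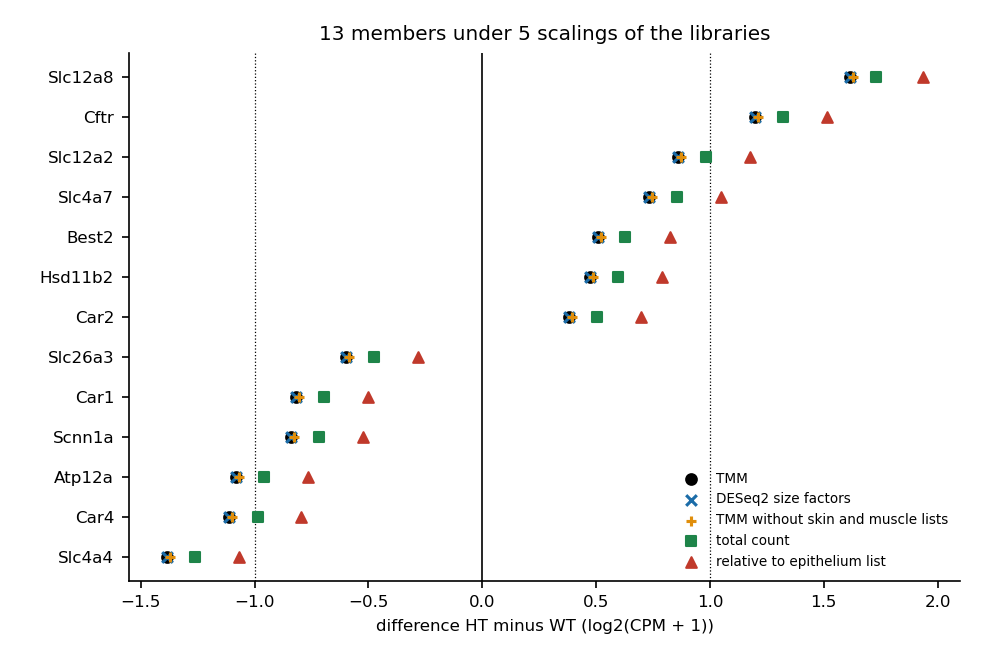
Difference between the HT and WT libraries on the log2(CPM + 1) scale (x axis) for 13 transport genes under 5 scalings of the libraries, with dotted lines at 2-fold. TMM, DESeq2 size factors and TMM without skin and muscle genes nearly coincide, total-count scaling lies to their right, and scaling to the intestinal epithelium list lies farthest to the right, where Slc12a2 and Slc4a7 pass 2-fold and Car4 and Atp12a do not.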

How the data were processed

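Total intestinal RNA of 3 mice per genotype was pooled, and 1 QuantSeq 3' mRNA-Seq (FWD) library per genotype was sequenced as single-end 75 bp reads. The authors deposited whole-number counts per gene symbol without normalization. The methods name STAR with HTSeq-count in 1 passage and Bowtie2 with RSEM in another, the submitters' processing notes name Bowtie2, RSEM and GRCm38, and which of these gave the deposited counts, and whether strand was used, is not given in the sources used here.

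From the counts, TMM factors (0.958 for WT and 1.04 for HT) came from edgeR 4.0.16 (R 4.3.3). CPM used library sizes multiplied by these factors, and 1 was added before taking log2. Exact intervals came from scipy 1.17.1. Quasi-likelihood tests cannot be fitted to 1 library per genotype. The interval and the 2-fold rule were run on simulated counts that held counting noise alone and 4-fold changes. Such counts hold no variation between mice and no changes near 2-fold, so they cannot show how the rule performs there. The total of each library limits precision, and intervals cover counting error only.

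The genes, lists and rules were chosen with earlier results of these data known. Transport genes were named where past 2-fold, among the 4 with most reads in their role, or in a set of key transporters. Of the genes of the cell type lists that were past 2-fold or had most reads, only some were named. Values of some transport genes are not reported here, and counts and medians include them. The gene lists were written from general knowledge. Alternatives were DESeq2 1.42.0 size factors, total-count scaling, TMM without skin and muscle genes, scaling to epithelial genes, a pseudocount of 0.1, other filters and a 4-fold threshold. Coordinates are from GENCODE M21 (GRCm38), which held all 72 symbols. An overlap at the 3' end means the last 500 bases of a coding transcript.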

Additional observations from a re-analysis of the deposited data

How the results depend on the processing

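No paired analysis was possible because there was 1 library for each genotype. The number of transport genes past 2-fold was 2 higher and 4 lower. The higher count was 4 with at least 10 reads in a library or with no filter, 1 with a log2 level of at least 6, and 4 relative to the intestinal epithelium list. The lower count was 2 with total-count scaling and 1 relative to the epithelium list. Past 4-fold, both counts were 0. The median over transport genes past the level, -0.21, turned to 0.11 relative to the epithelium list and was -0.32 at a log2 level of at least 6. Relative to the epithelium list, the median of the channels Cftr and Best2 was 1.17 and that of the sodium channel and aldosterone axis was -0.084. At a log2 level of at least 6, the channel median was 1.20 (Cftr alone) and that of the Slc12 family 0.86 (Slc12a2 alone). Among regulator genes, 3 higher became 6 relative to the epithelium list and 0 at a log2 level of at least 6. These last filters leave fewer genes. Total-count scaling shifted the median over all symbols at the level by 0.12 on the log2 scale, and the epithelium list shifted it by 0.32, so that changes under them are relative to that shift. Of 175 recomputed differences of the 35 named transport genes, 35 left the counting interval (23 relative to the epithelium list, 11 with total-count scaling and 1 with a pseudocount of 0.1), and none of those past 2-fold changed direction. Depth limits genes such as Slc9a3, with 7 reads in the WT library.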
